A study of Mus musculus with 6 samples.

Results

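The transcripts of the mTORC1 kinase complex and of the regulators that tell it about growth signals and amino acids were examined in murine CD4 T cells. The 10 genes were chosen by role, as core subunits or upstream regulators of mTORC1 and not as its transcriptional targets, and are *Mtor*, *Rptor*, *Rheb*, *Tsc1*, *Tsc2*, *Depdc5*, *Sesn2*, *Sesn3*, *Flcn* and *Ddit4*. All 10 were found among the 56748 genes of the deposited table and all 10 were among the 14936 with enough counts to be tested. The libraries came from polyA RNA of wild-type CD4 cells of the spleen, and the study's methods add lymph nodes, C57BL/6 mice aged 6 to 10 weeks and selection of naïve cells. Cells were grown for 3 days under Treg polarizing conditions with antisense oligonucleotides (ASOs) at 10 μM and were not sorted before RNA was taken. Each label, scrambled ASO or *Pgam* ASO, has 3 libraries. Where 3 values are given for a label, they stand in the order of replicates 1, 2 and 3. The depth was 17588755, 18032805 and 16231127 counts under the label scrambled ASO, and 16589933, 15860476 and 16803881 counts under the label *Pgam* ASO.

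mTORC1 is a protein kinase complex on the lysosome that promotes protein synthesis and growth and restrains autophagy. It is switched on there by the GTPase RHEB once Rag GTPases, which respond to amino acids through GATOR1, GATOR2 and a set of sensors, have brought it to the lysosomal surface. In T cells, mTORC1 activity rises on activation and affects whether CD4 cells become effector cells or Tregs.

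The target of the ASOs was examined first. *Pgam1* was at 599.6, 478 and 707 CPM (counts scaled for library size by edgeR's TMM method) under the label scrambled ASO, and at 658, 661 and 707 CPM under the label *Pgam* ASO. The groups overlapped, with a log2 fold change of 0.18 (standard error, SE, 0.13), and edgeR's quasi-likelihood test gave an adjusted p of 0.331. With single libraries left out, its log2 fold change ran from 0.047 without replicate 2 labelled scrambled ASO (adjusted p in edgeR = 0.793) to 0.33 without replicate 3 of that label (0.0528). *Pgam1* shares 37.1% of its stretches of 31 bases with other genes, mainly a pseudogene, so the division of its reads is uncertain. Summed with the genes that share at least 10%, its log2 fold change stayed at 0.18 (adjusted p in edgeR = 0.331). *Pgam2*, the muscle form, had a log2 fold change of -0.84 (adjusted p in edgeR = 0.0854), and its groups also overlapped. It passed the edgeR test without a filter on low counts (adjusted p in edgeR = 0.0292) and without replicate 3 labelled scrambled ASO (log2 fold change -1.11, adjusted p in edgeR = 0.0144). Without replicate 2 of that label its log2 fold change was -0.56 (adjusted p in edgeR = 0.286), and limma-voom gave an adjusted p of 0.134. Neither target transcript was lower by the test, so the labels were not checked by them, and every direction given here is that of the libraries labelled *Pgam* ASO relative to the libraries labelled scrambled ASO.

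Cell identity was checked on marker lists. The 7 CD4 T cell genes were all detected, with *Cd4* the most abundant, and summed to between 2537 and 2863 CPM in the libraries labelled scrambled ASO and between 2167 and 2378 CPM under the label *Pgam* ASO. Of these 7 genes, *Cd28* and *Trac* were lower in the edgeR test and 0 were higher, beside 9.15% and 8.03% of all tested genes. The count of 2 rose to 5 without replicate 3 labelled scrambled ASO, with *Cd3d*, *Cd3e* and *Cd3g* added, to 4 without replicate 3 labelled *Pgam* ASO or without a filter on low counts, and to 3 with DESeq2 or library size alone. The B cell list summed to at most 11.6 CPM in any library, the myeloid list to at most 3.83 CPM, the NK list to at most 5.90 CPM, the mast cell and basophil list to at most 7.37 CPM and the erythroid list to at most 2.76 CPM. Their most abundant genes were *Cd79a*, *Lyz2*, *Klrk1*, *Kit* and *Alas2*, and the NK gene *Klrb1c* had a count of 0 in all 6 libraries. The pair of CD8 genes summed to at most 15.7 CPM, with *Cd8b1* the more abundant. Of the tested genes of these lists, *Cd8a* was higher and *Kit* was lower, beside 8.03% and 9.15% of all tested genes. *Cd8a* was not called without replicate 1 under either label (adjusted p in edgeR = 0.0989 and 0.1004), nor *Kit* without replicate 1 labelled scrambled ASO (0.0506) or replicate 2 labelled *Pgam* ASO (0.0851). *Cd28* was called with any 1 library left out, and *Trac* was not without replicate 1 or 2 under either label (adjusted p in edgeR from 0.0898 to 0.153). With the replicate block, which adds the replicate number to the model, *Trac* and *Cd8a* were not called (adjusted p in edgeR = 0.10004 and 0.0699).

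Of the 10 mTORC1 genes, *Sesn2* rose and *Sesn3* fell, and the other 8 did not pass the test. These 2 of 10 calls stand beside 17.2% of all tested genes with an edgeR adjusted p under 0.05 after Benjamini-Hochberg adjustment over all 14936, so the share called is near the background. In the higher direction 1 of 10 was called beside 8.03% of all tested genes, and in the lower direction 1 of 10 beside 9.15%. Groups did not overlap for *Mtor*, *Tsc1*, *Sesn2* and *Sesn3*, 4 of 10 genes, beside 39.5% of all tested genes. The median log2 fold change was 0.049 over the 10 genes and -0.0061 over all tested genes. In RNA from whole cultures, fewer cells of a type and less RNA per cell cannot be told apart. The study calls the replicates biological, and the sources used here do not say whether each came from a separate animal, so p-values measure the spread between these libraries.

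**Figure D1:**
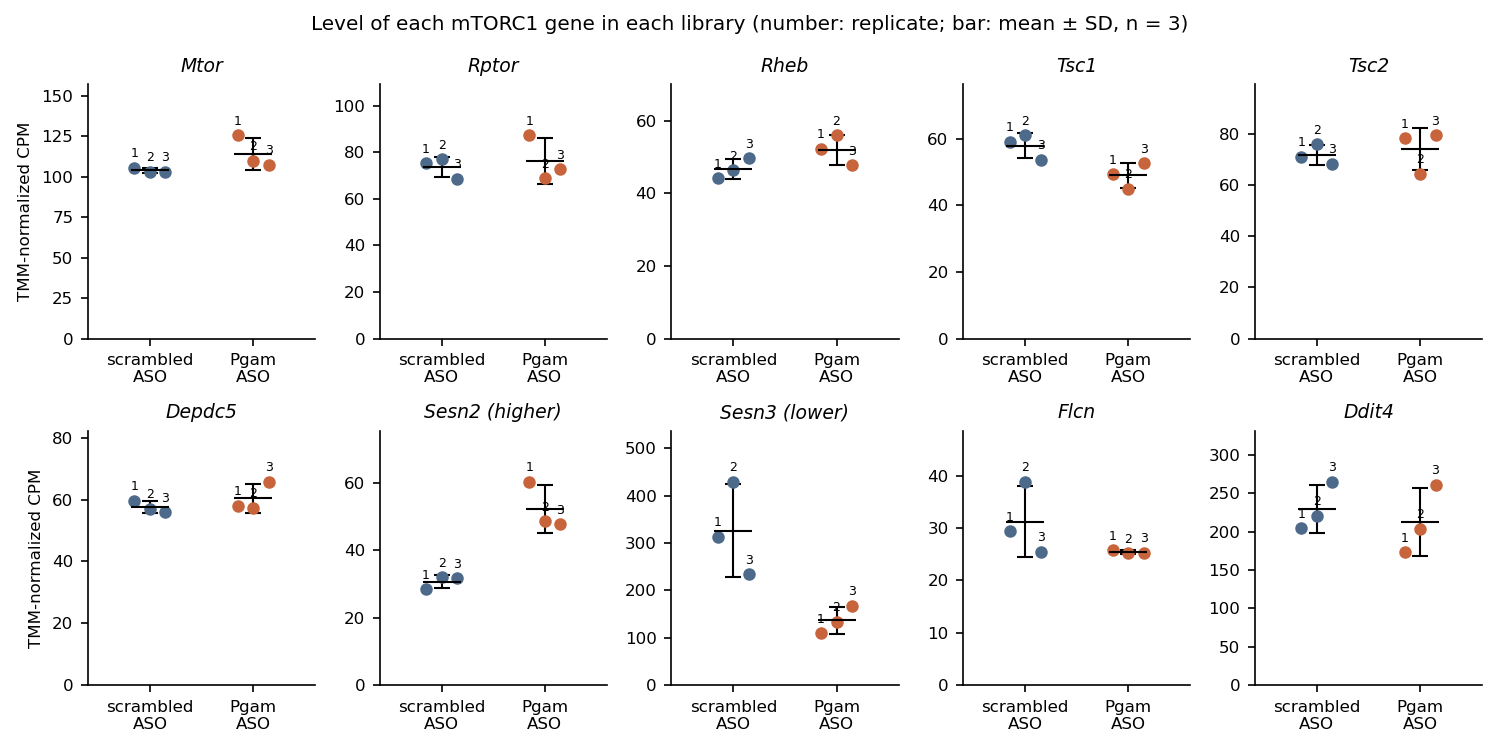
Level of each of the 10 genes in every library, in TMM-normalized CPM on axes that start at 0, with a point per library marked by its replicate number and a bar for the mean ± SD of 3 libraries per label. *Sesn2* is above 47 CPM in every library labelled *Pgam* ASO and below 32 CPM in every other, *Sesn3* shows the opposite order, and the points of *Rptor*, *Rheb*, *Tsc2*, *Depdc5*, *Flcn* and *Ddit4* overlap between labels.

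The sestrins are stress-induced proteins that hold back mTORC1, and SESN2 binds leucine, which releases GATOR2 from it. *Sesn2* (ENSMUSG00000028893, chromosome 4 from 132492032 to 132510501 on GRCm38, as annotated by GENCODE M21) was counted 506, 592 and 511 times under the label scrambled ASO, and 972, 759 and 806 times under the label *Pgam* ASO. In scaled units these were 28.5, 32.0 and 31.7 CPM against 60.4, 48.7 and 47.7 CPM. All 3 libraries labelled *Pgam* ASO were above all 3 others, and replicate 1 was the highest of them. The means were 30.7 ± 1.94 CPM and 52.3 ± 7.05 CPM (SD, n = 3), a 1.70-fold higher level with a log2 fold change of 0.77 (SE 0.12, adjusted p in edgeR = 0.00376). With each library left out in turn, the log2 fold change ran from 0.65 to 0.83 and the edgeR adjusted p from 0.00337 to 0.0295.

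*Sesn3* (ENSMUSG00000032009, chromosome 9 from 14275067 to 14333101) encodes a sestrin whose gene is a known target of FOXO factors. It was counted 5571, 7948 and 3772 times under the label scrambled ASO, and 1769, 2084 and 2827 times under the label *Pgam* ASO. The corresponding levels were 313, 429 and 234 CPM against 109.9, 134 and 167 CPM. The groups did not overlap, the libraries labelled scrambled ASO were spread widely, and their lowest, replicate 3, lay nearest to the other label. The means were 325 ± 98.3 CPM and 137 ± 28.8 CPM (SD, n = 3), a 2.38-fold lower level with a log2 fold change of -1.25 (SE 0.24, adjusted p in edgeR = 0.0180). The call was lost without replicate 1 labelled scrambled ASO (adjusted p in edgeR = 0.0565) and without replicate 2 labelled *Pgam* ASO (adjusted p in edgeR = 0.0801), and the log2 fold change ran from -1.44 to -0.999 over the 6 libraries left out in turn.

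*Sesn1*, the third sestrin and a p53 target, was not among the 10 genes but completes the family. Its level was 84.3, 131 and 63.0 CPM under the label scrambled ASO, and 23.4, 30.3 and 39.7 CPM under the label *Pgam* ASO. The groups did not overlap, and the order of the 6 libraries was that of *Sesn3*. The log2 fold change was -1.58 (SE 0.31, adjusted p in edgeR = 0.0214). The call was lost when no filter on low counts was applied (adjusted p in edgeR = 0.0913), without replicate 1 labelled scrambled ASO (0.0616) and without replicate 1 or 2 labelled *Pgam* ASO (0.0670 and 0.0887).

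Levels of different genes were compared per kb of the longest annotated coding transcript. The 3 sestrins summed to 64.7, 90.7 and 51.3 CPM per kb under the label scrambled ASO, and to 35.6, 36.6 and 42.5 CPM per kb under the label *Pgam* ASO. *Sesn2* made up 12.7%, 10.1% and 17.8% of that sum in the first group and 48.9%, 38.3% and 32.3% in the second. With the mean length of all coding transcripts in place of the longest, these *Sesn2* shares were lower, at 7.53%, 6.06% and 10.8% in the first group and 34.2%, 25.4% and 20.9% in the second. With either length the share of *Sesn2* was higher in each library labelled *Pgam* ASO, while the summed sestrin level was lower in each. By the longest transcript, the share of *Sesn3* averaged 51.7% ± 1.58 and 39.0% ± 4.73 (SD, n = 3), and that of *Sesn1* 34.8% ± 2.90 and 21.2% ± 3.65, with the label scrambled ASO given before *Pgam* ASO. The log2 ratio of *Sesn2* to *Sesn3* in CPM was -3.46, -3.75 and -2.88 in the libraries labelled scrambled ASO and -0.86, -1.46 and -1.81 under the label *Pgam* ASO, without overlap. Neither gene overlapped between labels and they went in opposite directions, so this ratio could not overlap and adds no further result. Since 1 gene of the ratio was called in each direction, no test is given for it.

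**Figure D2:**
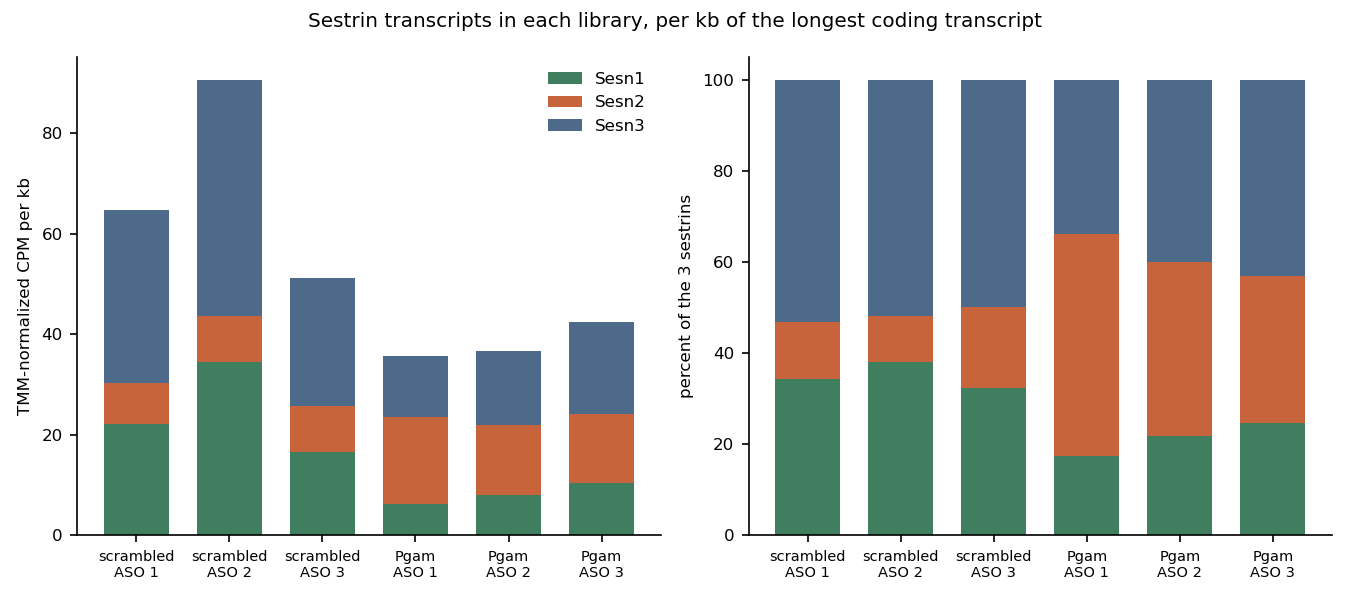
Stacked bars of *Sesn1*, *Sesn2* and *Sesn3* in each library, on the left in TMM-normalized CPM per kb of the longest coding transcript and on the right as a percent of the 3 together. The *Sesn2* share is at most 17.8% in the libraries labelled scrambled ASO and at least 32.3% under the label *Pgam* ASO.

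The promoters of *Sesn2* and *Sesn3* are shown because these genes were called in opposite directions, and that of *Rheb* because it was the only promoter of the 10 with a match to any motif searched. Each runs 5′ to 3′ from 250 bases before to 50 bases after the RefSeq start on GRCm38.p6, and all 10 genes had 1 promoter in the table. The motifs, read on both strands, were TGATGNAAN (an element of ATF4 and its C/EBP partners), GTAAACA (a forkhead element) and CACGTG (an E-box read by MYC and TFEB family proteins). They occur in 3.95%, 3.65% and 7.15% of the 32851 promoters of the table. Capitals mark the E-box, which begins at position -96 relative to the start of *Rheb*, and the other promoters shown hold none of the 3 motifs.
Sesn2, chr4:132510407-132510706, minus strand: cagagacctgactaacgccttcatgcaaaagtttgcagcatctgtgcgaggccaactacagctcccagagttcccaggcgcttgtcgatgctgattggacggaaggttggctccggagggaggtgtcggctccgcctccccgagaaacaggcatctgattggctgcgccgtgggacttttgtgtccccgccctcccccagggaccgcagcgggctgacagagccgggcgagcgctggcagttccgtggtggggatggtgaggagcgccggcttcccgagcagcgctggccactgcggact
Sesn3, chr9:14276051-14276350, plus strand: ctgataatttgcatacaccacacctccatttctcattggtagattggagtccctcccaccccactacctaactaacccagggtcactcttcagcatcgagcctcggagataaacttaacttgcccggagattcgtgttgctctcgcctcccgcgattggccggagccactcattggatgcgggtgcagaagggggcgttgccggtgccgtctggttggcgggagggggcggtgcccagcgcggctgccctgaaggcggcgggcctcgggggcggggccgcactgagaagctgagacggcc
Rheb, chr5:24842312-24842611, minus strand: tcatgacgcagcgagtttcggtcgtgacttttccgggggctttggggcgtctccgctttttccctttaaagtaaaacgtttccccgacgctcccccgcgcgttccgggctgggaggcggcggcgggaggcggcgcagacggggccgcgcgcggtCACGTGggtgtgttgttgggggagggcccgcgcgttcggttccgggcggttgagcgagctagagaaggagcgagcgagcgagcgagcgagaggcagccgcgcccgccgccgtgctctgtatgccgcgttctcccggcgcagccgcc
A match to these letters describes the sequence alone, and the lack of one says only that the letters are not in this window.

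The core of the complex was represented by *Mtor*, the kinase, and *Rptor*, which encodes the scaffold RAPTOR that recruits substrates. *Mtor* (ENSMUSG00000028991, chromosome 4 from 148448611 to 148557683) was at 106, 103 and 103 CPM under the label scrambled ASO, and at 126, 109.8 and 107 CPM under the label *Pgam* ASO. The groups did not overlap, by a margin of less than 2 CPM between the highest of the first and the lowest of the second. Its log2 fold change was 0.14 (95% interval -0.054 to 0.33, adjusted p in edgeR = 0.283). *Rptor* (ENSMUSG00000025583) lay between 68.7 and 77.1 CPM under one label and between 68.8 and 87.3 CPM under the other, with a log2 fold change of 0.050 (95% interval -0.18 to 0.28, adjusted p in edgeR = 0.766). Without replicate 1 labelled *Pgam* ASO, the highest *Rptor* library, that log2 fold change was -0.054. None of the 5 genes of the mTORC1 core list, which adds *Mlst8*, *Akt1s1* and *Deptor*, was called by edgeR, DESeq2 or limma-voom. None of the 5 had an unadjusted edgeR p under 0.05, and edgeR called 17.2% of all tested genes.

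RAPTOR and RICTOR mark the alternative mTOR complexes, mTORC1 and mTORC2. *Rictor* was at 120.3, 131 and 106 CPM under the label scrambled ASO, and at 56.6, 74.3 and 90.8 CPM under the label *Pgam* ASO, without overlap. Its log2 fold change was -0.69 (SE 0.16, adjusted p in edgeR = 0.0214), and the call was lost without replicate 1 or 2 labelled scrambled ASO (adjusted p in edgeR = 0.0705 and 0.0807) and without replicate 2 labelled *Pgam* ASO (0.0913). *Prr5l*, which encodes another mTORC2 subunit, had a log2 fold change of -0.92 (SE 0.19, adjusted p in edgeR = 0.0132) and lost its call without replicate 2 labelled *Pgam* ASO (0.0812). Of the 4 genes of mTORC2-specific subunits, 2 were lower and 0 were higher, beside 9.15% and 8.03% of all tested genes, and the 2 became 1 without replicate 1 or 2 labelled scrambled ASO and 0 without replicate 2 labelled *Pgam* ASO. *Prr5* was called higher without replicate 3 labelled scrambled ASO. The log2 ratio of *Rptor* to *Rictor* was -0.68, -0.77 and -0.63 in the libraries labelled scrambled ASO and 0.63, -0.11 and -0.32 under the label *Pgam* ASO. It did not overlap between labels, and neither did *Rictor* alone, whereas *Rptor* alone overlapped. Of all tested genes taken singly, 39.5% did not overlap, and no such share was counted for ratios.

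RHEB is the GTPase that activates mTORC1, and the TSC complex, with TSC1 as its stabilizing subunit and TSC2 as its catalytic one, returns RHEB to its inactive form. *Rheb* (ENSMUSG00000028945, chromosome 5 from 24802823 to 24842624) was at 44.1, 46.4 and 49.8 CPM under the label scrambled ASO, and at 52.3, 56.0 and 47.8 CPM under the label *Pgam* ASO. The groups overlapped, and the log2 fold change was 0.15 (95% interval -0.061 to 0.37, adjusted p in edgeR = 0.286). *Tsc1* (ENSMUSG00000026812, chromosome 2 from 28641228 to 28691167) was at 59.2, 61.1 and 53.7 CPM against 49.4, 45.0 and 52.7 CPM. All 3 of its libraries labelled *Pgam* ASO lay below all 3 others, yet the log2 fold change of -0.24 (95% interval -0.46 to -0.029) did not pass after adjustment (adjusted p in edgeR = 0.103, unadjusted p = 0.0298).

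*Tsc2* (ENSMUSG00000002496) ranged from 68.4 to 76.0 CPM under the label scrambled ASO and from 64.6 to 79.6 CPM under the label *Pgam* ASO. Its log2 fold change was 0.047 (95% interval -0.18 to 0.27, adjusted p in edgeR = 0.772), and it was -0.00014 without replicate 3 labelled *Pgam* ASO. Exons of *Tsc2* overlap those of *Pkd1* on the opposite strand over 693 bases, and no source used here says that the counting used strand, so reads there cannot be assigned with certainty. The log2 ratio of *Tsc1* to *Tsc2* was -0.26, -0.32 and -0.35 in the libraries labelled scrambled ASO and -0.67, -0.52 and -0.60 under the label *Pgam* ASO. These ratios did not overlap, while the log2 ratio of *Rheb* to *Tsc2* did, with means of -0.62 ± 0.14 and -0.51 ± 0.27 (SD, n = 3). *Tsc1* alone did not overlap either and was not called, whereas *Tsc2* alone overlapped. Single genes without overlap made up 39.5% of all tested genes, and no such share was counted for ratios.

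GATOR1 turns off the Rag GTPases when amino acids are scarce, and DEPDC5 is one of its subunits. *Depdc5* (ENSMUSG00000037426) ranged from 55.8 to 59.6 CPM under the label scrambled ASO and from 57.3 to 65.7 CPM under the label *Pgam* ASO. Its log2 fold change was 0.070 (95% interval -0.13 to 0.27, adjusted p in edgeR = 0.609). EdgeR called 17.2% of all tested genes. It called none of the 3 GATOR1 genes, the 4 Rag GTPases or the 5 Ragulator genes that anchor the Rags. Nor did it call the 3 tested KICSTOR genes that hold GATOR1 at the lysosome. The adjusted p in edgeR was 0.0518 or more for all genes of these lists. Among these, *Lamtor3* of Ragulator was called by DESeq2, *Rragd* was called lower without a filter on low counts and without replicate 2 labelled scrambled ASO, and no other passed with limma-voom, DESeq2 or another scaling. In GATOR2, which opposes GATOR1, *Sec13* alone of 5 genes was called by edgeR, higher, beside 17.2% of all tested genes called and 8.03% called higher. *Wdr24* was also called, lower, when libraries were scaled by size alone. *Sec13*, whose protein also serves in COPII vesicles and the nuclear pore, had a log2 fold change of 0.49 (SE 0.13, adjusted p in edgeR = 0.0340). That call was lost without replicate 1 or 2 under either label, with adjusted p in edgeR = 0.109 and 0.0751 for scrambled ASO and 0.115 and 0.118 for *Pgam* ASO, and with the replicate block (0.0642).

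Many of the calls were in the amino acid sensor list, which also holds homologs of sensors and *Bmt2*, whose protein senses S-adenosylmethionine. Of 8 sensor genes tested, 5 were lower and 1, *Sesn2*, was higher, beside 9.15% and 8.03% of all tested genes, with a median log2 fold change of -0.74 beside -0.0061 over all tested genes. The lower genes were *Sesn1*, *Sesn3*, *Castor2*, *Bmt2* and *Slc38a9*, and no test of the list as a whole was made. The count of 6 called sensors fell to 2, *Sesn2* and *Bmt2*, without replicate 1 labelled scrambled ASO or without replicate 2 labelled *Pgam* ASO, and to 3 without replicate 1 labelled *Pgam* ASO. *Slc38a9*, the lysosomal arginine sensor and transporter, was at 43.8, 65.3 and 33.7 CPM under the label scrambled ASO, and at 16.0, 17.5 and 26.0 CPM under the label *Pgam* ASO. The groups did not overlap, and the log2 fold change was -1.26 (SE 0.28, adjusted p in edgeR = 0.0247). The call was lost without replicate 1 labelled scrambled ASO (adjusted p in edgeR = 0.0681) and without replicate 1 or 2 labelled *Pgam* ASO (0.0802 and 0.102), and with the replicate block (0.0558).

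*Bmt2* encodes SAMTOR, which senses the methyl donor S-adenosylmethionine, a product of one-carbon metabolism. It was at 34.2, 35.2 and 28.1 CPM under the label scrambled ASO, and at 15.4, 19.4 and 20.7 CPM under the label *Pgam* ASO. The groups did not overlap, with a log2 fold change of -0.81 (SE 0.14, adjusted p in edgeR = 0.00723), and the edgeR adjusted p was at most 0.0439 with any 1 library left out. *Castor2*, a homolog of the arginine sensor CASTOR1, had a log2 fold change of -0.66 (SE 0.14, adjusted p in edgeR = 0.0149). Its call was lost without replicate 1 labelled scrambled ASO (adjusted p in edgeR = 0.0560) and without replicate 1 or 2 labelled *Pgam* ASO (0.0541 and 0.0893). *Castor1* (log2 fold change 0.21, adjusted p in edgeR = 0.193) and *Sar1b*, a leucine sensor (0.14, adjusted p in edgeR = 0.362), were not called.

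**Figure D3:**
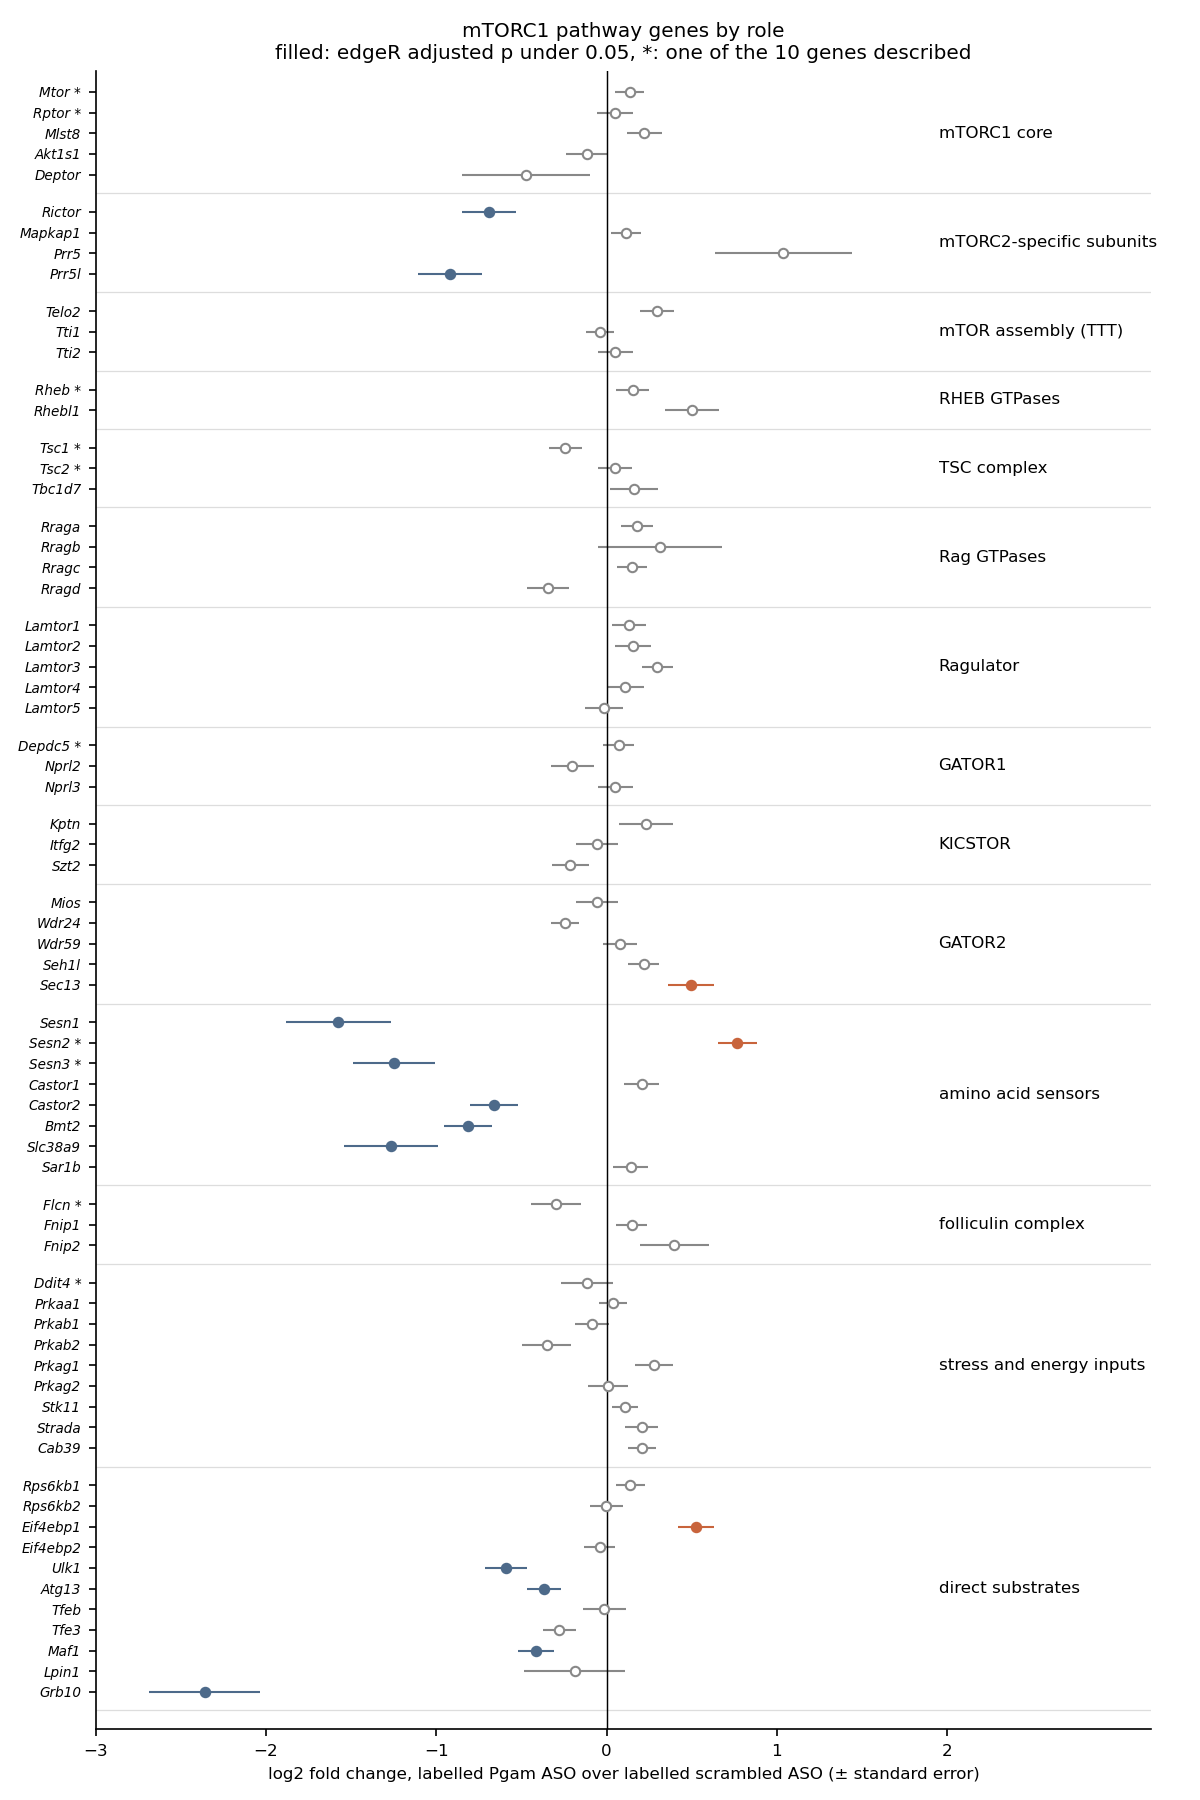
Log2 fold change of the libraries labelled *Pgam* ASO over those labelled scrambled ASO for the 68 tested pathway genes, grouped by role, with bars for the standard error. Filled points have an edgeR adjusted p under 0.05. Of these, 3 lie to the right of 0 and 11 to the left, beside 8.03% and 9.15% of all tested genes. Of these 14, 6 are from the amino acid sensor list.

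FLCN, with its FNIP partners, acts on RagC and RagD so that mTORC1 can reach one group of its substrates, the TFEB and TFE3 transcription factors. *Flcn* (ENSMUSG00000032633, chromosome 11 from 59791408 to 59810016) was at 29.4, 38.8 and 25.5 CPM under the label scrambled ASO, and at 25.8, 25.2 and 25.3 CPM under the label *Pgam* ASO. The groups overlapped through replicate 3 labelled scrambled ASO, and the 3 libraries labelled *Pgam* ASO lay within 1 CPM of each other. The log2 fold change was -0.30 (95% interval -0.63 to 0.029, adjusted p in edgeR = 0.178). Without replicate 3 labelled scrambled ASO it was -0.42 and passed the test (adjusted p in edgeR = 0.0477), and without replicate 2 of that label, the highest library, it was -0.11 (adjusted p in edgeR = 0.597).

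DDIT4, also called REDD1, restrains mTORC1 through the TSC complex under hypoxia, DNA damage or energy stress. *Ddit4* (ENSMUSG00000020108, chromosome 10 from 59949669 to 59951834) was at 205, 221 and 265 CPM under the label scrambled ASO, and at 173, 204 and 261 CPM under the label *Pgam* ASO. The groups overlapped in part, since 2 of the 3 libraries labelled *Pgam* ASO lay below all those labelled scrambled ASO, and replicate 3 was the highest under both labels. The log2 fold change was -0.11 (95% interval -0.45 to 0.23, adjusted p in edgeR = 0.629), and its sign turned without replicate 3 labelled scrambled ASO (0.0026) and without replicate 1 labelled *Pgam* ASO (0.018). Of the 9 tested genes of the stress and energy list, which holds the AMPK subunits and the LKB1 complex, 0 were called by edgeR, DESeq2 or limma-voom. Over all tested genes, edgeR called 17.2%. Of the 9, 3 had an unadjusted edgeR p under 0.05.

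By level per kb of the longest coding transcript, *Ddit4* stood highest of the 10 genes under both labels, at 131 ± 17.8 and 121 ± 25.5 CPM per kb (SD, n = 3). Under the label scrambled ASO, *Sesn3* followed at 35.7 ± 10.8 and *Rheb* at 26.2 ± 1.59 CPM per kb, with overlapping ranges. Then came *Mtor*, *Tsc2*, *Rptor*, *Flcn* and *Sesn2*, from 12.1 down to 8.84 CPM per kb, each overlapping the next. Below them by mean were *Tsc1* and *Depdc5* at 7.53 and 6.999 CPM per kb, which overlapped each other. The range of *Flcn*, down to 7.41 CPM per kb, also overlapped that of *Tsc1*, up to 7.93 CPM per kb. Under the label *Pgam* ASO, *Rheb* came second at 29.2 ± 2.32 CPM per kb, and *Sesn2* and *Sesn3* stood side by side at 15.04 ± 2.03 and 15.01 ± 3.16 CPM per kb. *Mtor*, *Tsc2* and *Rptor* followed from 13.3 down to 11.6 CPM per kb, each overlapping the next and *Mtor* overlapping *Sesn3*, then *Flcn* and *Depdc5* at 7.396 and 7.35 CPM per kb. *Tsc1* was the lowest there, at 6.36 ± 0.501 CPM per kb. The order depends on the length assumed, since with the mean length of all coding transcripts *Sesn3* was at 77.2 and *Depdc5* at 20.05 CPM per kb under the label scrambled ASO. Under the label *Pgam* ASO that length put *Sesn3* after *Ddit4*, at 32.5 ± 6.84 CPM per kb and overlapping *Rheb* at 29.2 CPM per kb, and *Sesn2* at rank 8 of the 10 with 15.04 CPM per kb, so *Sesn2* and *Sesn3* were level only by the longest transcript.

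**Figure D4:**
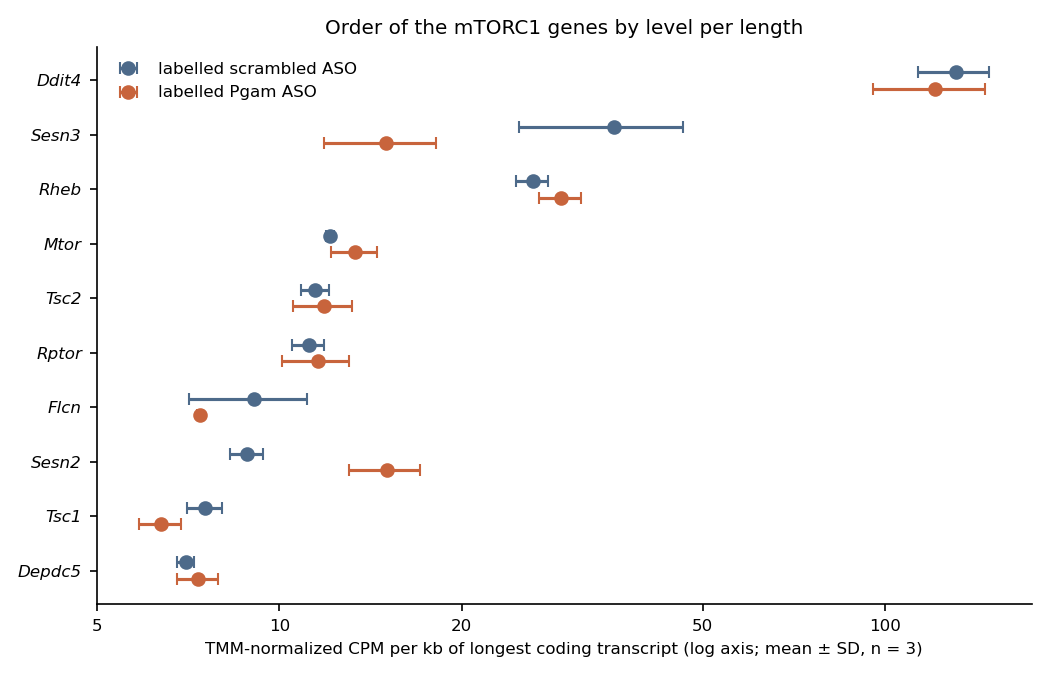
Level of the 10 genes in TMM-normalized CPM per kb of the longest coding transcript on a log axis, as mean ± SD of 3 libraries per label, ordered by the libraries labelled scrambled ASO. *Sesn3* moves from 35.7 to 15.01 and *Sesn2* from 8.84 to 15.04 CPM per kb, while *Ddit4* is the highest under both labels.

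Transcripts of direct substrates of mTORC1 were listed as well, and their levels do not measure kinase activity. Of 11 such genes, 4 were lower and 1 was higher, beside 9.15% and 8.03% of all tested genes. These 5 calls became 1, *Grb10*, without replicate 1 labelled scrambled ASO or replicate 2 labelled *Pgam* ASO, 2 without replicate 1 labelled *Pgam* ASO and 3 without replicate 2 labelled scrambled ASO or with the replicate block. *Grb10*, an adaptor that dampens insulin signalling, was counted 118, 101 and 156 times under the label scrambled ASO, and 16, 31 and 21 times under the label *Pgam* ASO. The groups were far apart, with a log2 fold change of -2.36 (SE 0.33, adjusted p in edgeR = 0.00264) that was still called with any 1 library left out. *Eif4ebp1*, the translation repressor 4E-BP1, was at 41.0, 42.1 and 52.0 CPM against 64.3, 65.4 and 64.9 CPM, a log2 fold change of 0.53 (SE 0.11, adjusted p in edgeR = 0.0126). Its call was lost without replicate 1 labelled scrambled ASO (adjusted p in edgeR = 0.0655) and without replicate 2 labelled *Pgam* ASO (0.0734).

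The remaining substrate calls were the autophagy starters *Ulk1* and *Atg13* and the RNA polymerase III repressor *Maf1*. *Ulk1* was at 66.5, 80.7 and 62.5 CPM under the label scrambled ASO, and at 42.2, 43.7 and 53.4 CPM under the label *Pgam* ASO, with a log2 fold change of -0.59 (SE 0.13, adjusted p in edgeR = 0.0154). The log2 fold changes of *Atg13* and *Maf1* were -0.37 (adjusted p in edgeR = 0.0340) and -0.41 (adjusted p in edgeR = 0.0299). The groups of all 3 genes did not overlap, but each call depended on single libraries. *Ulk1* was lost without replicate 1 labelled scrambled ASO (adjusted p in edgeR = 0.0511) and without replicate 1 or 2 labelled *Pgam* ASO (0.0568 and 0.0912). *Atg13* and *Maf1* were lost without replicate 1 or 2 under either label, with edgeR adjusted p from 0.0903 to 0.131 for *Atg13* and from 0.0745 to 0.132 for *Maf1*, and with the replicate block (0.0766 and 0.0642).

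Over the whole list of 71 pathway genes, 70 were matched to the table and 68 tested. Of these, 3 were called higher and 11 lower, beside 8.03% and 9.15% of all tested genes. Without the 10 genes described above, 12 of 58 tested genes were called. That is 20.7%, near the 17.2% of all tested genes. By direction, 2 were higher and 10 lower, beside 8.03% and 9.15% of all tested genes. The median log2 fold change of these 58 was 0.045. Without replicate 1 labelled scrambled ASO, 4 of the 14 calls were kept, and without replicate 1 or 2 labelled *Pgam* ASO, 7 and 3 were kept. The calls kept with every library left out in turn were those of *Sesn2*, *Bmt2* and *Grb10*. *Kics2* was not matched, and *Ddit4l* and *Prkaa2* had too few counts to test.

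The libraries ranked alike for many of the lower genes. *Sesn3* was highest in replicate 2 labelled scrambled ASO, then in replicates 1 and 3, and under the label *Pgam* ASO it was highest in replicate 3, then 2, then 1. Of the 13 other called pathway genes, 8 had the same order of all 6 libraries, namely *Rictor*, *Sesn1*, *Castor2*, *Bmt2*, *Slc38a9*, *Ulk1*, *Atg13* and *Maf1*, beside 5.21% of all tested genes and 37.6% of all genes called lower. Among all genes with a mean log2 CPM of at least 1, *Bambi-ps1*, *Zbtb20* and *Bcl2l11* were most like *Sesn3* over the 6 libraries, each with a Pearson r of log2 CPM above 0.999. Among the 10 genes, the closest to *Sesn3* was *Tsc1* (r = 0.910) and the closest to *Sesn2* was *Mtor* (r = 0.831). For *Mtor* and *Rheb* the closest was *Sesn2* (r = 0.831 and 0.713), for *Tsc1* and *Flcn* it was *Sesn3* (0.910 and 0.824), for *Rptor* it was *Mtor* (0.744), for *Tsc2* it was *Rptor* (0.691) and for *Depdc5* it was *Tsc2* (0.568). *Ddit4* was like none of the others, with a highest r of 0.338 and a lowest, with *Mtor*, of -0.755. These values describe 6 libraries in 2 groups, so a difference between labels by itself gives a high r.

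Several T cell markers had the same library order. The 7 genes of the naïve T cell list summed to 1988, 2496 and 1813 CPM under the label scrambled ASO, and to 857, 898 and 1085 CPM under the label *Pgam* ASO, which is the library order of *Sesn3*. Of the 7, 4 were lower and 0 higher in the edgeR test, beside 9.15% and 8.03% of all tested genes, among them *Ccr7*, the most abundant, with a log2 fold change of -1.87 (adjusted p in edgeR = 9.27e-05). *Klf2*, *Lef1* and *Satb1* were not called (adjusted p in edgeR = 0.0888, 0.266 and 0.942), though *Klf2* was called lower by DESeq2 and limma-voom and without replicate 3 labelled *Pgam* ASO. *Klf2*, *S1pr1*, *Tcf7* and *Il7r*, 4 of the 7, had the same library order as *Sesn3*, and so had 5 of the 7 CD4 T cell genes (*Cd3d*, *Cd3e*, *Cd3g*, *Cd4* and *Trac*), the sum of that list, and *Foxp3* and *Ikzf2* of the 5 Treg genes. In the Treg list, *Foxp3* (log2 fold change -1.41, adjusted p in edgeR = 0.00567) and *Ikzf2* were lower and *Il2ra*, the most abundant, was higher. These 2 lower and 1 higher of 5 genes stand beside 9.15% and 8.03% of all tested genes. The summed level of the 5 Treg genes was 3082 ± 228 CPM under the label scrambled ASO and 3617 ± 207 CPM under *Pgam* ASO (SD, n = 3). *Il2ra* alone went from a mean of 1929 to 2768 CPM, and the other 4 Treg genes had negative log2 fold changes. Of these, *Ctla4* (log2 fold change -0.28, adjusted p in edgeR = 0.0575, groups not overlapping) was called lower by DESeq2, with library size alone and without a filter on low counts. *Ccr7* and *Foxp3* were called with any 1 library left out. *S1pr1*, *Tcf7*, *Ikzf2* and *Il2ra* were not called without replicate 1 labelled scrambled ASO or without replicate 1 or 2 labelled *Pgam* ASO (adjusted p in edgeR from 0.0639 to 0.147), nor *Ikzf2* without replicate 2 labelled scrambled ASO (0.124), nor *Il7r* without replicate 2 labelled *Pgam* ASO (0.0592). Without a filter on low counts *Tcf7* was not called (adjusted p in edgeR = 0.120), nor was *S1pr1* with library size alone as the scaling (0.0593), nor were *S1pr1*, *Tcf7* and *Ikzf2* with the replicate block (0.0659, 0.0574 and 0.0745). The part of cell state in the changes of *Sesn3* and the other genes of the sensor list was not tested.

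**Figure D5:**
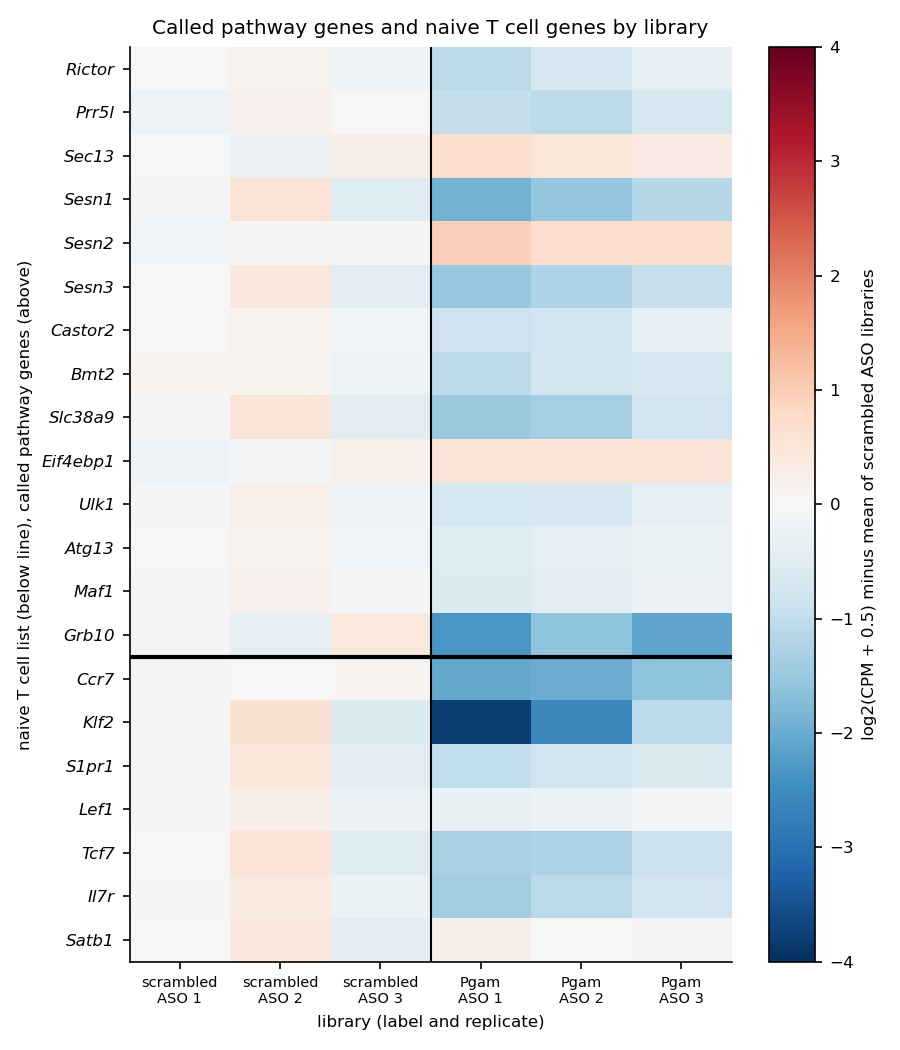
Heat map of the 14 called pathway genes (above the line) and the 7 genes of the naïve T cell list (below it) in the 6 libraries, as log2(CPM + 0.5) minus the mean of the libraries labelled scrambled ASO. Blue is lower and red is higher, and *Sesn2*, *Sec13* and *Eif4ebp1* are the called pathway genes in red under the label *Pgam* ASO.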

How the data were processed

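The deposited table holds, for each Ensembl gene, the estimated count from Kallisto in whole numbers, with no scaling by the authors. The submitters' processing notes name GRCm38, and the annotation release is not given in the sources used here. Symbols and coordinates were taken from GENCODE M21. The fit used edgeR 4.0.16 under R 4.3.3 (filterByExpr defaults, TMM scaling, robust quasi-likelihood, no covariates). Tests were two-sided, and p-values of all genes tested were adjusted by the Benjamini-Hochberg method, with a threshold of 0.05. Standard errors are the absolute log2 fold change over the square root of F, and intervals use the t distribution of the fit. The procedure was tested on 1 simulated data set, in which the share of false calls was above the threshold with all 3 tools, most with DESeq2. Alternatives were DESeq2 1.42.0, limma-voom (limma 3.58.1), RLE or library-size scaling, other filters, a replicate block, each library left out, and an adjusted p under 0.01. Likeness was taken on log2(CPM + 0.5). Shared stretches of 31 bases were counted on GENCODE transcripts, since Kallisto divides reads between genes that share them. None of the 10 genes and no called pathway gene shared 10% or more with others, whereas *Mlst8* and 8 other uncalled pathway genes did. The named genes are the 10 members, other pathway genes that passed the test, their closest matches, the ASO targets and the most abundant and absent markers. Other genes named were chosen after their values were seen. The members and lists were chosen with earlier results of these data known. One gene of the naïve T cell list is not reported here, and the sums and counts of that list leave it out. Counting error sets the precision at low counts, and depth ranged from 15860476 to 18032805 counts.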

Additional observations from a re-analysis of the deposited data

How the results depend on the processing

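*Sesn2* was called higher, and *Sesn3* lower, with DESeq2, limma-voom, both other scalings, ribosomal and mitochondrial genes left out, both other filters and the replicate block. With a library left out, 1 of 10 genes was called higher in each case and 0 to 2 lower. At an adjusted p under 0.01, 1 was higher and 0 lower. For the pathway list, DESeq2 called 5 higher, the threshold of 0.01 gave 1 higher and 2 lower, and leaving out libraries gave 1 to 4 higher and 2 to 13 lower. For all genes, 1199 were called higher and 1366 lower. These became 1832 higher without a filter on low counts, where more genes were tested, 173 and 280 at 0.01, and 160 to 1711 and 231 to 1773 with a library left out. With the replicate block, 480 were higher and 755 lower, and 10 of the 14 pathway calls were kept, without *Sec13*, *Slc38a9*, *Atg13* and *Maf1*. Samples of equal number had correlations of deviations across genes of 0.079, -0.039 and -0.28, so the numbers were not taken to pair the libraries, and not every library correlated best with its own number. With single libraries left out, log2 fold changes ran from -0.054 to 0.12 for *Rptor*, from -0.00014 to 0.14 for *Tsc2* and from -0.28 to 0.018 for *Ddit4* (0.0026 without replicate 3 labelled scrambled ASO), so signs turned, and none of these passed the test. The cause was not tested beyond the loss of samples. Over the 10 members, the other called pathway genes, the ASO targets and the called markers, 418 other comparisons kept direction and side of the threshold, 66 lost the call and 3 gained it. Summing *Pgam1* with the genes that share its sequence, chosen after seeing the data, left its log2 fold change at 0.18. Counts under about 30, as for *Grb10*, limit precision.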
